A study of Mus musculus with 4 samples.

Results

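The genes described here are the 10 that make up the Lin28/let-7 axis and the core of the microRNA processing pathway in mouse: Lin28a, Lin28b, Trim71, Dis3l2, Dicer1, Drosha, Dgcr8, Ago1, Ago2 and Ago3. They were chosen by symbol for what their proteins do, and all 10 were found among the 20296 genes of the authors' deposited table. RNA of epiblast-like stem cells (EpiLSC) was compared with RNA of naive mouse embryonic stem cells (nESC). The EpiLSC came from nESC that had been grown to day 3 with 12 ng/ml bFGF, a fibroblast growth factor, and 20 ng/ml activin A. The nESC were kept in 2i/LIF, a medium that pairs kinase inhibitors with the cytokine LIF to maintain naive cells. Each state had 2 samples, 1 of the line R1 and 1 of the line E14TG2a (E14), so the spread within a state includes the difference between the lines. Medium and state changed together and cannot be told apart.

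The deposited table gives 1 comparison and no column per sample, so values of single libraries and of the lines R1 and E14 were not analysed here. For each gene it holds the mean normalized count over the 4 libraries, a log2 fold change with its standard error (SE), and a p-value of the DESeq2 Wald test adjusted over 16361 genes. A gene was called when its adjusted p was under 0.05. The p-values rest on the spread between these 4 samples and not on repeat cultures of a line. The table header does not state the direction, so the sign was read from marker genes, with positive meaning more RNA in EpiLSC. All 4 formative epiblast markers rose (Fgf5, Otx2, Dnmt3b and Pou3f1) and all 6 naive markers fell (Zfp42, Klf4, Esrrb, Tfcp2l1, Nr5a2 and Prdm14). The pluripotency gene Pou5f1 did not pass, with a log2 fold change of -0.19 (SE 0.76), while Sox2 fell, at -3.35 (SE 0.64), by the authors' deposited table. The total depth of each library is unknown. The level of a gene in each state is implied by its mean together with its fold change, and is given with no error.

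MicroRNAs are cut in steps. The Microprocessor, made of the nuclease DROSHA and the RNA-binding protein DGCR8, releases a hairpin from the primary transcript, DICER cuts the hairpin to a short duplex, and an Argonaute protein takes up 1 strand and uses it to find target mRNAs. LIN28A and LIN28B bind precursors of the let-7 family, block their processing and lead to tailing with uridines, after which the exonuclease DIS3L2 degrades them. TRIM71 (LIN41) is a ubiquitin ligase and RNA-binding protein of early embryonic cells, and, like both Lin28 genes, a let-7 target. Naive embryonic stem cells hold little mature let-7, and the Lin28 proteins are known as marks of the passage from the naive to the primed state.

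The let-7 family is shown first because its seed, the bases that pair with targets, ties the Lin28 genes and Trim71 together. The capitals mark bases 2 to 8, counted from the 5′ end, in mature sequences of RefSeq (GRCm38.p6). For let-7a, let-7c and let-7f, which have more than 1 hairpin, the location of only 1 is given. All 9 sequences share the seed GAGGUAG and differ elsewhere. They were not measured here, since the data are counts of long RNAs.
let-7a-5p, chr13:48538239-48538260, minus strand: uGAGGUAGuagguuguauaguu
let-7b-5p, chr15:85707325-85707346, plus strand: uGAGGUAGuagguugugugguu
let-7c-5p, chr15:85706616-85706637, plus strand: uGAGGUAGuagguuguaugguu
let-7d-5p, chr13:48536078-48536099, minus strand: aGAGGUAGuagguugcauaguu
let-7e-5p, chr17:17830366-17830387, plus strand: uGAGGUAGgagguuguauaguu
let-7f-5p, chr13:48537889-48537910, minus strand: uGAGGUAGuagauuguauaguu
let-7g-5p, chr9:106178846-106178867, plus strand: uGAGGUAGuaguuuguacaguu
let-7i-5p, chr10:122985698-122985719, minus strand: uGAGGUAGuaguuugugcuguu
miR-98-5p, chrX:151913229-151913250, plus strand: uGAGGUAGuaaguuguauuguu

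The zinc knuckles of LIN28 proteins are known to bind the motif GGAG in the terminal loop of let-7 precursors. The motif was searched on the transcribed strand between the 5p and 3p arms of each RefSeq hairpin. It was found in 9 of 12 hairpins of let-7 and mir-98, and in 6.95% of the 633 other mouse hairpins with both arms annotated. The let-7 loops were longer, with a median of 30.5 bases, against 16 bases over all hairpins. The hairpins of let-7b, let-7c-2 and mir-98 had no GGAG there, which says only that these letters are not in the window. Below, a pair with the motif in capitals is set beside a pair without it.
Mirlet7g, chr9:106178840-106178927, plus strand: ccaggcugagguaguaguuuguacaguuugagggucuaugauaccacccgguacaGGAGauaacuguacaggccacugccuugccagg
Mirlet7a-1, chr13:48538179-48538272, minus strand: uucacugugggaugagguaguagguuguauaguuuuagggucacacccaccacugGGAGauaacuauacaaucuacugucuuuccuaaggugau
Mirlet7b, chr15:85707319-85707403, plus strand: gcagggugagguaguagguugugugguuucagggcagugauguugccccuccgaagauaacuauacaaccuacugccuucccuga
Mirlet7c-2, chr15:85706603-85706697, plus strand: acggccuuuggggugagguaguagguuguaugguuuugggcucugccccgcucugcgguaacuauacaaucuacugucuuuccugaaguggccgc

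Lin28b was the 1 gene of the 10 that passed the test. It rose 19.8-fold in EpiLSC, and the other 9 genes did not pass in either direction. Over all genes tested, 13.9% passed, 7.67% as higher and 6.23% as lower in EpiLSC, so 1 of 10 is near the background. In 6 of the 9 genes that did not pass, the 95% interval of the ratio lay within a 4-fold change either way, and in 0 within a 2-fold change. The 10 genes are well expressed, and among the 5224 tested genes with a mean at or above that of Dis3l2, the lowest of the 10, 6.68% passed and 2.51% were higher. The median log2 fold change of the 10 genes was -0.01, against 0.02 over all genes tested.

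Lin28b (ENSMUSG00000063804.7, chromosome 10) encodes the LIN28 paralog best known from embryonic and fetal tissues. The authors' deposited table gives it a mean normalized count of 3706, which implies 7055 in EpiLSC and 357 in nESC. The log2 fold change in the authors' deposited table was 4.30 (SE 0.71, DESeq2 adjusted p 5.61e-08). The 95% interval of the fold ran from 7.57 to 51.5, so smaller changes lay outside it. Among the 1694 tested genes with a mean at or above its own, of which 20 rose, Lin28b had the fifth largest fold change. The call stood when tested against a 2-fold change (adjusted p 0.000126), and it stood with an adjusted p under 0.01, with no filter on the mean, and at a mean minimum of 100. None of the other 9 genes was called under these alternatives. Over all genes tested, the share called was 6.91% against a 2-fold change (3.84% higher, 3.07% lower) and 9.78% at 0.01 (5.37% higher, 4.41% lower). It was 10.6% with no filter (5.84% higher, 4.75% lower) and 11.7% at means of 100 or more (5.94% higher, 5.74% lower). Since the samples are bulk cultures, more cells with Lin28b RNA and more of it per cell cannot be told apart.

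Lin28a (ENSMUSG00000050966.8, chromosome 4) encodes the paralog that is used as a pluripotency factor in reprogramming. Its mean in the authors' deposited table was 11280, and its implied levels were 17698 in EpiLSC and 4862 in nESC. The log2 fold change was 1.86 (SE 0.71) in the authors' deposited table, a ratio of 3.64 that did not pass (DESeq2 p 0.00839, adjusted p 0.0584). The 95% interval of the ratio, from 1.39 to 9.51, lay above 1, but the adjustment over all genes left it just outside the threshold, so neither a rise nor its absence is shown. In the whole table, 34 genes with a smaller absolute log2 fold change than Lin28a were called, 14 of them as higher. The difference between the log2 fold changes of Lin28b and Lin28a was 2.44 (SE 1.00, 95% interval 0.48 to 4.40, both SEs taken as independent), given as a description because both come from the same libraries.

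**Figure D1:**
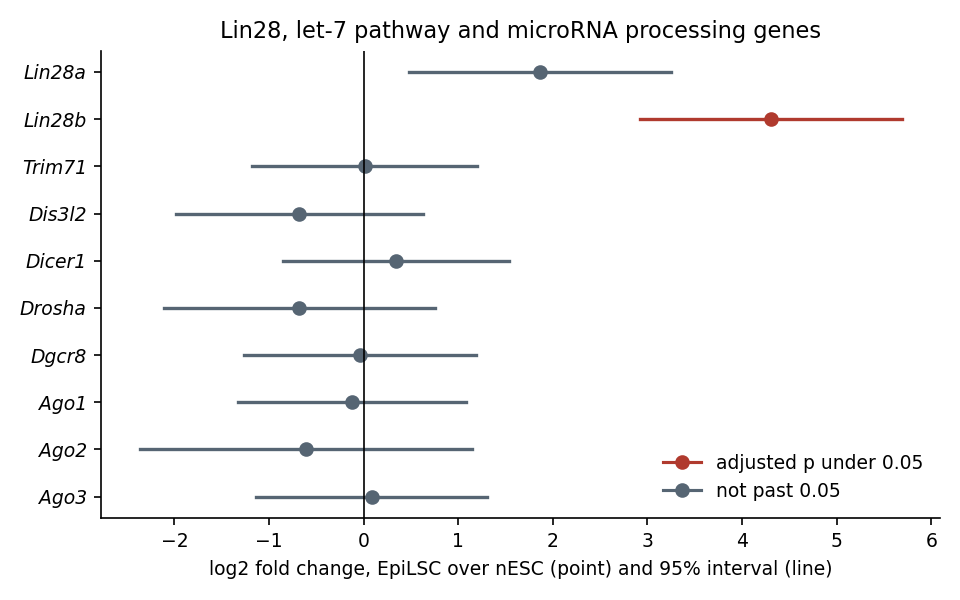
Log2 fold change of EpiLSC over nESC (x axis) for each of the 10 genes (rows), as deposited, with 95% intervals from the deposited SEs. Lin28b at 4.30 is the single called gene, Lin28a lies at 1.86, and the other 8 genes lie between -0.68 and 0.34 with intervals that span 0.

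Lin28a had the higher implied level of the paralogs in both states, both before and after length was taken into account. Per kb of annotated exon, Lin28a had an implied level of 4429 normalized counts in EpiLSC and 1217 in nESC. On the same scale Lin28b had 778 in EpiLSC and 39.4 in nESC. Lin28b thus made up 14.9% of the summed Lin28 level per kb in EpiLSC and 3.14% in nESC. With the longest transcript as the length, these shares were 20.5% in EpiLSC and 4.55% in nESC. The summed level per kb of both genes was 5207 in EpiLSC and 1256 in nESC, most of which was Lin28a, whose own change did not pass.

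Markers of other cell types were measured beside the Lin28 genes. Of the 4 neuroectoderm markers 1 rose, Nes, and the summed implied level was 9027 in EpiLSC and 1377 in nESC. Nes alone gave 8486 of this in EpiLSC and 929 in nESC. The log2 fold changes of Sox1 (-1.98), Pax6 (2.93) and Tubb3 (0.29) did not pass, and Sox1 and Pax6 had means of 13.8 and 11.2 in the authors' deposited table. Of the 3 mesoderm markers 2 rose, Mixl1 and Eomes, with a summed level of 2448 in EpiLSC and 663 in nESC. Over all genes tested, 7.67% were higher. Eomes gave 1917 of this sum in EpiLSC and 212 in nESC. The third, T, did not pass (0.02, SE 1.04, by the authors' deposited table) and gave 447 in EpiLSC and 439 in nESC. The primitive endoderm markers summed to 44.8 in EpiLSC and 90.7 in nESC, with 0 of 3 tested genes called and Gata6 at a mean of 2.81 in the authors' deposited table. Of these sums, Pdgfra (-2.38) gave 13.5 in EpiLSC and 69.9 in nESC. Gata4 (0.67) and Sox17 (0.97) had positive log2 fold changes in the authors' deposited table. The fibroblast markers summed to 216 in EpiLSC and 87.2 in nESC, with 1 of 4 tested genes, Thy1, higher and Col1a1 at a mean of 6.07 in the authors' deposited table. Thy1 gave 141 of this sum in EpiLSC and 5.83 in nESC. By the authors' deposited table Col1a1 (1.55), Col1a2 (2.69) and Pdgfrb (-1.24) did not pass. The part of such cells in the Lin28b result was not tested.

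Trim71 (ENSMUSG00000079259.2, chromosome 9) is, beside the Lin28 genes, a well-known let-7 target, and its levels in the 2 states were close. Its mean of 15455 was the highest of the 10 in the authors' deposited table, and its implied levels were 15510 in EpiLSC and 15401 in nESC. The log2 fold change was 0.01 (SE 0.61, DESeq2 adjusted p 0.998) in the authors' deposited table. The 95% interval of the ratio ran from 0.44 to 2.29, so a change of more than about 2.3-fold either way lay outside it. The log2 fold change of Lin28b exceeded that of Trim71 by 4.29 (95% interval 2.47 to 6.12), again as a description.

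Dis3l2 (ENSMUSG00000053333.14, chromosome 1), the exonuclease gene, had the lowest mean of the 10 at 910 in the authors' deposited table. Its implied levels were 700 in EpiLSC and 1121 in nESC. In the authors' deposited table its log2 fold change was -0.68 (SE 0.67), which did not pass (DESeq2 adjusted p 0.724). The interval of the ratio, 0.25 to 1.54, did not reach below a 4-fold decrease.

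The Microprocessor genes did not pass either. Drosha (ENSMUSG00000022191.14, chromosome 15), the nuclease, had implied levels of 4258 in EpiLSC and 6820 in nESC, and a log2 fold change of -0.68 (SE 0.73, DESeq2 adjusted p 0.774) by the authors' deposited table. Its interval ran from 0.23 to 1.69 on the ratio scale and so includes decreases of 4-fold. Dgcr8 (ENSMUSG00000022718.10, chromosome 16), its RNA-binding partner, had implied levels of 4049 in EpiLSC and 4161 in nESC. Its log2 fold change was -0.04 (SE 0.62, DESeq2 adjusted p 0.991) in the authors' deposited table.

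Dicer1 (ENSMUSG00000041415.9, chromosome 12), which cuts the hairpins, had implied levels of 6862 in EpiLSC and 5407 in nESC. The log2 fold change was 0.34 (SE 0.61, DESeq2 adjusted p 0.917) in the authors' deposited table. The ratio's interval, 0.56 to 2.90, did not reach a 3-fold change either way.

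Of the Argonaute genes, Ago2 encodes the family member with slicing activity, and Ago1, Ago3 and Ago4 lie on chromosome 4. Ago2 (ENSMUSG00000036698.10, chromosome 15) had implied levels of 6318 in EpiLSC and 9668 in nESC, with a log2 fold change of -0.61 and the widest SE of the 10 genes, 0.90, in the authors' deposited table. Its ratio's interval, 0.19 to 2.21, includes a 4-fold decrease. Ago1 (ENSMUSG00000041530.15) had implied levels of 3179 in EpiLSC and 3468 in nESC, and a log2 fold change of -0.13 (SE 0.61) in the authors' deposited table. Ago3 (ENSMUSG00000028842.14) had 1770 in EpiLSC and 1668 in nESC, and a log2 fold change of 0.09 (SE 0.62) in the authors' deposited table. None of these 3 passed, with DESeq2 adjusted p of 0.982 for Ago1, 0.88 for Ago2 and 0.985 for Ago3. Ago4, which is not among the 10, was far less abundant, with a mean of 54.2 and a log2 fold change of 0.46 (SE 0.96) in the authors' deposited table.

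Per kb of exon, Ago2 led the family in nESC and was close to Ago1 in EpiLSC. Ago2 held 47.0% of the summed Argonaute level per kb in EpiLSC and 56.3% in nESC. Ago1 held 40.9% in EpiLSC and 34.9% in nESC. Ago3 held 11.2% in EpiLSC and 8.23% in nESC, and Ago4 held 0.944% in EpiLSC and 0.536% in nESC. These shares carry no error, and no member of the family passed the test.

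**Figure D2:**
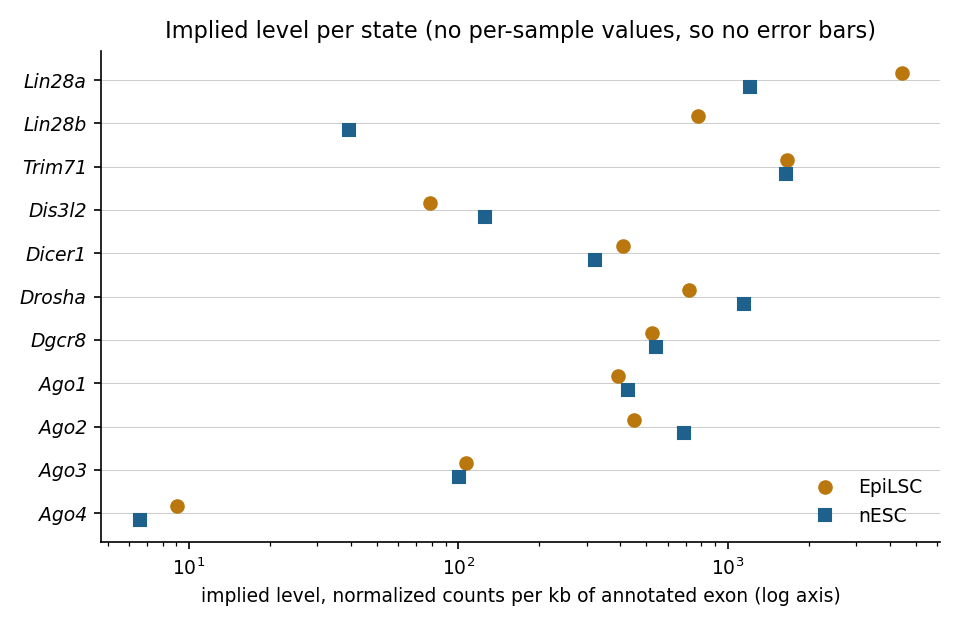
Implied level per kb of annotated exon (x axis, log scale) in EpiLSC (circles) and nESC (squares) for the 10 genes and Ago4 (rows). The gap between the states is widest for Lin28b, at 778 in EpiLSC and 39.4 in nESC, while Trim71, at 1662 in EpiLSC and 1650.3 in nESC, shows almost none.

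Ordered by level per kb of exon in EpiLSC, Lin28a (4429) came first, followed by Trim71 (1662), Lin28b (778), Drosha (718), Dgcr8 (526), Ago2 (450.3), Dicer1 (409.7), Ago1 (392), Ago3 (107) and Dis3l2 (78.6). In nESC the order was Trim71 (1650.3), Lin28a (1217), Drosha (1149), Ago2 (689), Dgcr8 (541), Ago1 (427), Dicer1 (323), Dis3l2 (126), Ago3 (101) and Lin28b (39.4). Lin28b thus ranked 3 of the 10 in EpiLSC and last in nESC. Neighbours in either order cannot be separated, because the levels have no spread over samples. With the longest transcript in place of the exon union, Lin28b had the same rank in each state, and Drosha (1492) stood ahead of Lin28a (1387) in nESC.

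**Figure D3:**
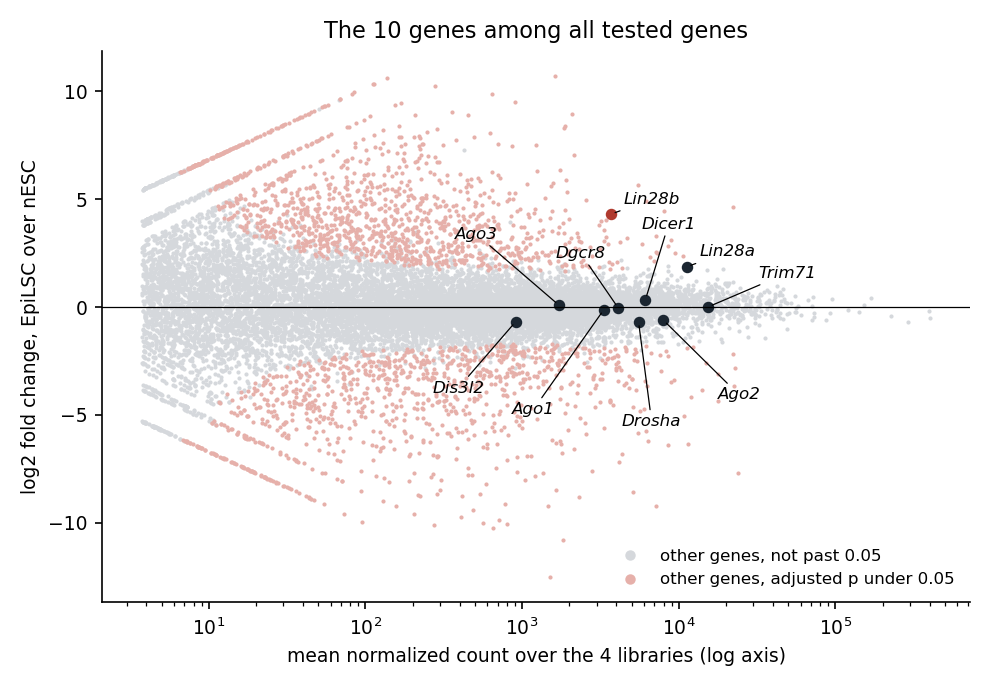
Mean normalized count (x axis, log scale) against log2 fold change of EpiLSC over nESC (y axis) for all 16361 tested genes, with the 10 genes named. Lin28b, at 4.30, is among the highest fold changes at its level, and the other genes but Lin28a lie in the band around 0.

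Of the other genes of the pathway 2 passed the test. Over 5 lists with 82 tested genes in all (modifiers of let-7 and other microRNAs, Microprocessor partners, export, Dicer and Argonaute partners, silencing effectors, and the exosome with other 3′ nucleases), 1 gene rose and 1 fell. That is 1.22% in each direction, against 7.67% higher and 6.23% lower over all genes tested. Most of these genes are well expressed, and 67 of the 82 had a mean at or above that of Dis3l2. Of these 67, 0 rose and 1 fell (1.49%), against 2.51% higher and 4.17% lower among all tested genes at such means. The median log2 fold change of these 82 genes was -0.03. In 56 of the 80 that did not pass, the 95% interval lay within a 4-fold change either way.

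Among the 11 modifiers, Adarb1, an RNA-editing enzyme, rose, and the authors' deposited table gives it 2.18 (SE 0.73, DESeq2 adjusted p 0.0235) as log2 fold change. Its implied levels were 689.7 in EpiLSC and 152 in nESC. The uridylating enzymes that act with LIN28 on let-7 precursors did not pass: Tut4 had 0.38 (SE 0.64) and Tut7 -0.33 (SE 0.62) in the authors' deposited table. Nor did the abundant RNA-binding protein genes Hnrnpa1 (0.37, SE 0.64) and Syncrip (0.26, SE 0.67), as the authors' deposited table shows.

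None of the 13 Microprocessor partners passed by DESeq2's test, with 0 at an unadjusted p under 0.05, a level that 21.7% of all genes tested reached. The helicase gene Ddx5 had a log2 fold change of 0.30 (SE 0.68) and Hnrnpa2b1 0.55 (SE 0.76) in the authors' deposited table. Of the 12 export, Dicer and Argonaute partners, Mov10 fell, with a log2 fold change of -3.21 (SE 1.10, DESeq2 adjusted p 0.029) by the authors' deposited table. Mov10 encodes an RNA helicase that associates with Argonaute, and its implied levels were 243 in EpiLSC and 2243 in nESC. The partners with the highest means, Hsp90aa1 (-0.41, SE 0.69) and Hsp90ab1 (-0.27, SE 0.62), did not pass by the authors' deposited table. Xpo5, which exports the hairpins from the nucleus, had 0.13 (SE 0.61) in the authors' deposited table. By the authors' deposited table neither Dicer partner passed, with Tarbp2 at -0.62 (SE 0.78) and Prkra at 1.23 (SE 0.68).

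None of the 32 silencing effectors passed by DESeq2's test, although by the authors' deposited table Ajuba (1.65) and Eif4e2 (-1.39), 2 genes in all, had an unadjusted p under 0.05. Tnrc6a, Tnrc6b and Tnrc6c, the scaffold proteins that link Argonaute to mRNA decay, had log2 fold changes of 0.18 (SE 0.62) for Tnrc6a, 0.53 (SE 0.64) for Tnrc6b and -0.27 (SE 0.73) for Tnrc6c by the authors' deposited table. Cnot1, the scaffold of the deadenylase complex, had -0.25 (SE 0.65) and the poly(A)-binding protein gene Pabpc1 -0.35 (SE 0.72) in the authors' deposited table. Of the 14 tested genes of the exosome and other 3′ nucleases, 0 passed by DESeq2's test and 0 had an unadjusted p under 0.05, and the authors' deposited table gives Dis3 0.72 (SE 0.69) and Eri1 0.31. In the TRIM-NHL family, to which Trim71 belongs, Trim2 fell by 1.91 (SE 0.63, DESeq2 adjusted p 0.0224), and Trim32 had 0.78 (SE 0.71) in the authors' deposited table. The calls of Adarb1, Mov10 and Trim2 ended when tested against a 2-fold change (adjusted p 0.704, 0.38 and 0.92) and at an adjusted p under 0.01.

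**Figure D4:**
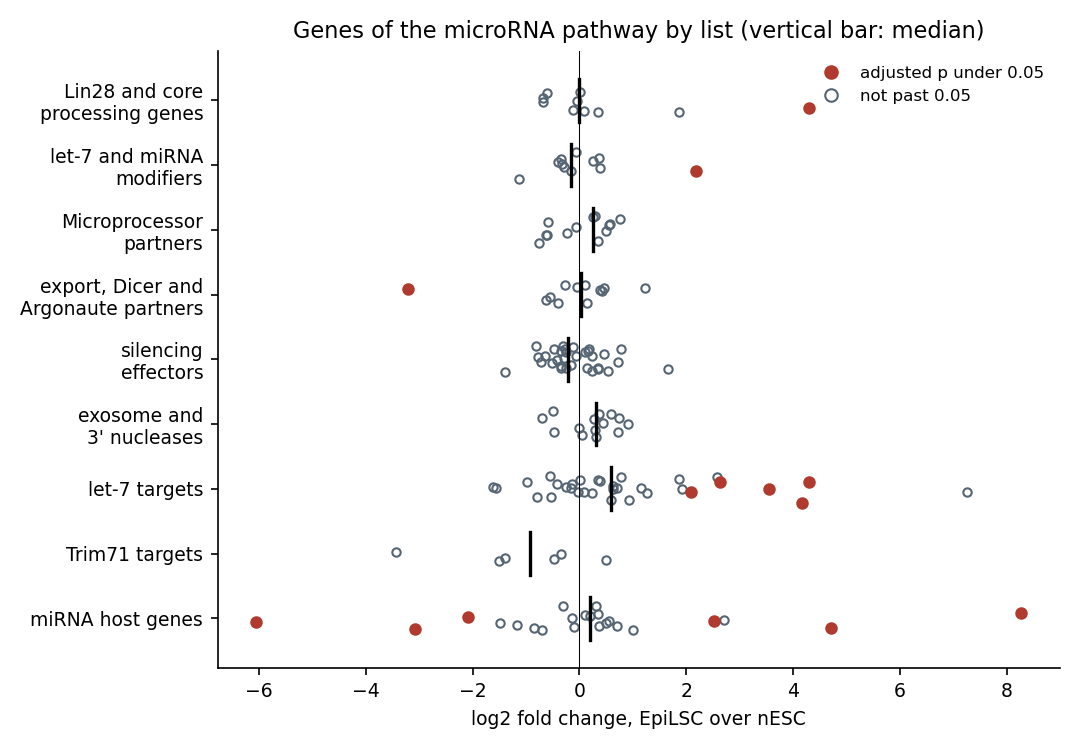
Log2 fold change of EpiLSC over nESC (x axis) for tested genes of each list (rows), filled where the adjusted p was under 0.05, with a bar at each median. The machinery lists cluster around 0, and the filled points lie mainly among the let-7 targets and the microRNA host genes.

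Genes reported as let-7 targets in mammalian cells were then described. Of 33 such genes 5 rose and 0 fell, which is 15.2% higher against 7.67% over all genes tested, and their median log2 fold change was 0.59. Lin28b is 1 of the 5, and among the 29 targets outside the 10 genes 4 rose (13.8%). By the authors' deposited table Ccnd2, a D-type cyclin, rose by 4.17 (SE 0.74, DESeq2 adjusted p 7.35e-07), and Prtg, a membrane protein of the early embryo, by 3.55 (SE 0.65, adjusted p 1.92e-06). The authors' deposited table also shows a rise of Fign, a microtubule-severing enzyme, by 2.62 (SE 0.69, DESeq2 adjusted p 0.00202), and of Nr6a1, an orphan nuclear receptor, by 2.09 (SE 0.68, adjusted p 0.0192). The abundant target Igf2bp1, an mRNA-binding protein, had -0.14 (SE 0.66) and Hmga2, a chromatin protein, -0.42 (SE 0.85) in the authors' deposited table. Against a 2-fold change, 3 calls stood, while Fign (adjusted p 0.199) and Nr6a1 (0.726) lost theirs. Thbs1 had the largest fold change of the list in the authors' deposited table, 7.26, but with an SE of 2.71 it did not pass (DESeq2 adjusted p 0.0526). By DESeq2's test 10 of the 33 had an unadjusted p under 0.05 (30.3%), against 21.7% of all genes tested. Of these 10, Igf2bp2 (-1.57, SE 0.64) and Onecut2 (-1.63, SE 0.79) were lower and the others higher in EpiLSC by the authors' deposited table.

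Matches to the let-7 seed were then sought in the annotated 3′ UTRs. The longest complete coding transcript of each gene in GENCODE M21 (GRCm38) was searched on its own strand for CTACCTC, which pairs with bases 2 to 8. A match followed by an A opposite base 1, CTACCTCA, contains the shorter motif and is called an 8mer. A further form, TACCTCA with no C before it, does not match base 8 and was not counted. Of the 10 genes 5 held at least 1 match, 14 in all, of which 9 were 8mers. Trim71 and Lin28b held 4 each, Ago2 3, Lin28a 2 and Ago3 1, while Dicer1, Drosha, Dgcr8, Dis3l2 and Ago1 held none. Of the uncounted form, Trim71 and Ago3 held 2 each, and Lin28b, Ago2 and Ago1 held 1 each. The matches of Lin28b, Lin28a and Trim71 are printed because these 3 genes share the family's seed match and had fold changes of very different size. The capitals mark the match within windows of 30 bases, all on the minus strand.
Lin28b, chr10:45381021-45381050: cccttcacccgggcgggaagtCTACCTCAt
Lin28b, chr10:45378648-45378677: acgtacatatacttgttagtaaCTACCTCt
Lin28b, chr10:45378476-45378505: aaattctgtttacagcacatggCTACCTCc
Lin28b, chr10:45377060-45377089: agcttggaaatgatggcaccgaCTACCTCt
Lin28a, chr4:134005188-134005217: tggagtgcacagcctgttgaaCTACCTCAt
Lin28a, chr4:134004550-134004579: tgctttgagatcgccacaaacCTACCTCAc
Trim71, chr9:114512471-114512500: aagtacaacattgcctaagtcCTACCTCAg
Trim71, chr9:114512375-114512404: ctgtgaagtgataatttctatCTACCTCAa
Trim71, chr9:114509046-114509075: attttgtttagtatggattttCTACCTCAa
Trim71, chr9:114509020-114509049: tcaattttggcaaaaagttgtCTACCTCAc

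Trim71 and Lin28b thus had the same number of matches, with log2 fold changes of 0.01 for Trim71 and 4.30 for Lin28b in the authors' deposited table. Trim71's 4 were 8mers, at positions 166, 262, 3591 and 3617 of a 3′ UTR of 5512 bases. Lin28b had 1 8mer, at position 36 of a 3′ UTR of 4445 bases.

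Across the table, a match to the seed went with little difference in the fold change. Of 14460 tested coding genes with an annotated 3′ UTR, 10.3% held at least 1 match. Of these 1487 genes, 8.68% were higher and 5.78% lower in EpiLSC, with a median log2 fold change of 0.05. Of the 12973 genes without a match, 8.16% were higher and 5.91% lower, with a median of 0.03. Of the 187 genes with 2 or more matches, 9.09% were higher and 4.28% lower. With at least 1 8mer, 8.33% of 516 genes were higher and 4.84% lower. The 3′ UTRs with a match were longer, with a median of 2327 bases, against 1017 bases in those without. Within the 33 reported targets, 4 of the 11 with 2 or more matches rose, 0 of the 13 with 1, and 1 of the 9 with none, which was Ccnd2. Lin28b is 1 of the 4. Some of the 9 without a match held the uncounted form TACCTCA, with 3 in Ccnd2 and 1 in Thbs1, while Dicer1 held 0. The median log2 fold changes did not follow the number of matches, at 0.93 with 2 or more, 0.23 with 1 and 0.78 with none.

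**Figure D5:**
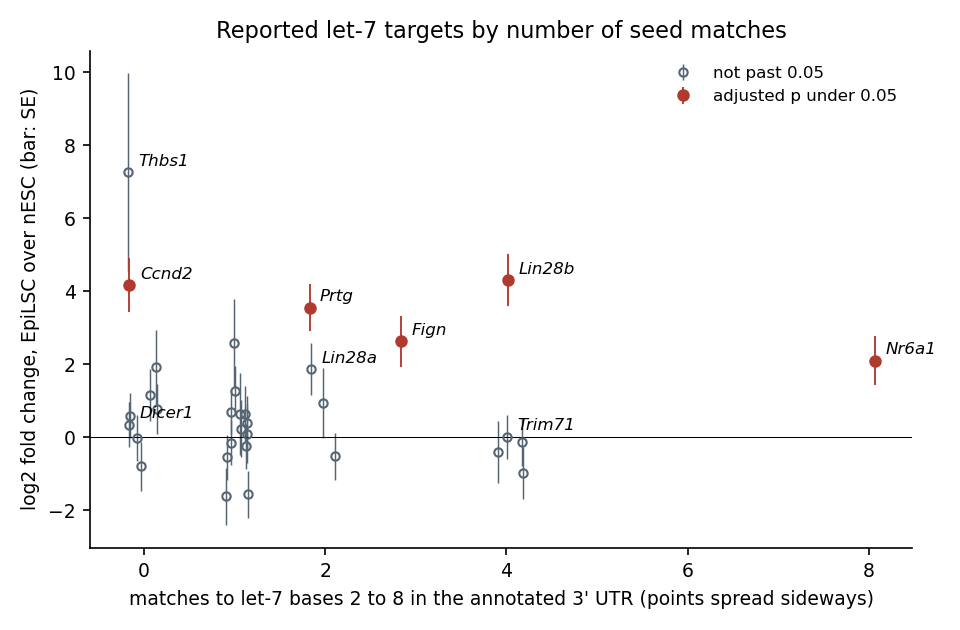
Number of matches to let-7 bases 2 to 8 in the annotated 3′ UTR (x axis) against log2 fold change of EpiLSC over nESC (y axis, bars are the deposited SEs) for the 33 reported let-7 targets. Lin28b and Trim71 share 4 matches, at fold changes of 4.30 and 0.01, and Nr6a1 has the most matches, 8.

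Transcripts that carry microRNA genes were described last, where the table holds them. Of 12 let-7 and mir-98 hairpins, 9 lay inside a gene of the table on the same strand, 6 genes in all. Of the 5 that were tested 0 passed, against 13.9% of all genes tested, which in so few genes is near the background. 6720427I07Rik, which spans let-7a-1, let-7d and let-7f-1, had a mean of 1898 and a log2 fold change of 0.37 (SE 0.92) in the authors' deposited table. Huwe1, a ubiquitin ligase gene that holds let-7f-2 and mir-98, had -0.10 (SE 0.65), Wdr82 around let-7g -0.67 (SE 0.75), and Spaca6 over let-7e 0.69 (SE 0.74) in the authors' deposited table. 3110039I08Rik, over let-7a-2, had a mean of 5.85, and Mir99ahg, over let-7c-1, a mean of 1.41 and no adjusted p in the authors' deposited table. The mir-302 and mir-367 hairpins had no same-strand gene of the table over them. Of the hairpins searched from mir-290 to mir-295, only mir-292b did, Nlrp12, with a mean of 3.83 in the authors' deposited table. Counts of a host gene are not a measure of the microRNA cut from it.

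Of 23 tested host genes in the wider list of microRNA hosts, 3 rose and 3 fell, which is 13.0% in each direction, against 7.67% higher and 6.23% lower over all genes tested. Mir670hg (8.27, SE 1.93), Igf2 (4.71, SE 1.20) and Ctdspl (2.52, SE 0.86) rose, and Mir124a-1hg (-6.05, SE 1.16), Copz2 (-3.08, SE 0.87) and Sfmbt2 (-2.09, SE 0.64) fell in the authors' deposited table. Their DESeq2 adjusted p ran from 6.42e-06 to 0.0273. Of these, Ctdspl, Copz2 and Sfmbt2 were not called against a 2-fold change (adjusted p 0.561, 0.175 and 0.632). The implied level of Mir670hg was 53.9 in EpiLSC and 0.174 in nESC. That of Igf2 was 58.1 in EpiLSC and 2.22 in nESC, and that of Mir124a-1hg 2.37 in EpiLSC and 157 in nESC, so the sizes of these folds rest on low counts. Mir17hg, the host of the mir-17 to mir-92 cluster, had 0.10 (SE 0.79), Mcm7, which holds mir-106b, mir-93 and mir-25, -0.13 (SE 0.64), and Rian 0.70 (SE 0.66) in the authors' deposited table.

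The 6 reported Trim71 targets had 0 calls by DESeq2's test, against 13.9% of all genes tested, which in so few genes is near the background. An unadjusted p under 0.05 was reached by 3 of them, against 21.7% of all genes tested. Their median log2 fold change was -0.94. The cell cycle inhibitor Cdkn1a had -1.51 (SE 0.65, DESeq2 adjusted p 0.12), the retinoblastoma-family gene Rbl2 -1.40 (SE 0.68) and the activin subunit gene Inhbb -3.43 (SE 1.41) in the authors' deposited table. Of the other targets, Plxnb2 had -0.47, Rbl1 -0.34 and Mbnl1, a splicing factor gene, 0.49 (SE 0.64) by the authors' deposited table. The implied level of Inhbb was 2.98 in EpiLSC and 32.2 in nESC, so the size of its fold rests on low counts.

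Reads of some of the 10 genes could be shared with neighbours on the opposite strand, because the strand setting of the counting is not given in the sources used here. Exons of Lin28a overlap Gm13061, which had a mean of 0.606, those of Dgcr8 overlap Trmt2a (mean 695) and those of Ago2 overlap Chrac1 (mean 228) in the authors' deposited table. Lin28b had no such overlap with a gene of the table in GENCODE M21.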

How the data were processed

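Strand-specific libraries were made from total RNA after removal of ribosomal RNA, per the labels' protocols. The authors used TopHat2, HTSeq, DESeq2 1.8.2 and the build mm9, per the submitters' processing notes. Neither the annotation nor the strand setting of the counting is stated there. The deposited table holds the mean normalized count (a signal: the authors' counts scaled by library), log2 fold change, its SE and the Wald score, and the deposited p-values, raw and adjusted. The Wald score equalled the fold change over its SE (largest gap 5.9e-14), and the adjusted p the Benjamini-Hochberg value over 16361 genes (largest gap 2.3e-15). The other 3935 genes, with means up to 3.74, have no adjusted p. Whether the fold changes were shrunken is not stated.

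With no values per sample, the test the authors deposited was used as it stands. The levels per state are the 2 values whose average is the deposited mean and whose ratio is the deposited fold, which weights the 4 libraries equally. Intervals use the normal 95% quantile. Names and lengths came from GENCODE M21 on GRCm38, matched without the version; 20167 of 20296 IDs had a name. Coordinates are those of GRCm38, not of the build the reads were aligned to. Computations used Python 3.11.15, pandas 2.3.3 and scipy 1.17.1, and the adjustment was tested on simulated data.

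The 10 genes and the lists were chosen with earlier results of these data known. In each list the text names called genes, up to 4 each way with the smallest p, and up to 2 others with the highest mean. Tut4, Tut7, Xpo5, Tarbp2, Prkra, the Tnrc6 genes, Hmga2, Thbs1, Ago4, Mir17hg, Mcm7, the genes over let-7 hairpins, the opposite-strand neighbours and the Trim71 targets Cdkn1a, Rbl2, Inhbb and Mbnl1 fall outside it and were added with their values known, as were Ajuba, Eif4e2, Igf2bp2 and Onecut2. Nlrp12 and some markers of other cell types were added in the same way.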

Additional observations from a re-analysis of the deposited data

How the results depend on the processing

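No paired analysis was possible because the deposited table has no values per sample. For the same reason no replicate could be left out, no count test with edgeR or a refit with DESeq2 was run, and other library weights for the level per state were not run. The Lin28b call stood under all 4 alternatives tried, with an adjusted p from 3.72e-08 to 0.000126, and the other 9 genes stayed uncalled under each. Lin28a had adjusted p 0.0725 with no filter, 0.0682 at a mean minimum of 100 and 1 against a 2-fold change. Over all genes, 636 rose and 615 fell at that minimum, and 628 rose and 502 fell against a 2-fold change; main counts were 1255 and 1019. Against a 2-fold change, the let-7 targets had 3 rises in place of 5, the microRNA hosts 1 fall in place of 3, and the modifiers, the export, Dicer and Argonaute partners, and the TRIM-NHL family 0 calls in place of 1 each. An adjusted p under 0.01 also left these last 3 lists with 0. At a mean minimum of 100, 0 of the 3 host genes that rose were left, since all 3 have lower means. The longest transcript as length moved 12 of 20 ranks by level. The cause of the other changes was not tested. Depth per library is unknown, and with SEs of at least 0.605 no fold below 3.20 was called in the table.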
